A study of Homo sapiens with 12 samples.

Results

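The response examined here is that of 10 genes of the oxygen-sensing pathway in neuroblastoma (NB) cells: the hypoxia-inducible factor (HIF) genes EPAS1, HIF1A, HIF3A, ARNT and ARNT2, the prolyl hydroxylase genes EGLN1 and EGLN3, and the hypoxia targets VEGFA, BNIP3 and ADM. They are 10 of the 43769 genes counted by RNA sequencing (RNAseq), and all 10 passed the filter on low counts. EPAS1 heads the set because it was among the strongest increases when cells given doxycycline and IFNγ were compared with cells given IFNγ alone, so its values in that comparison are a description and not a test. The other 9 were taken by their role in the pathway.

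The cells were a clonal line made from SK-N-DZ, an established MYCN amplified NB line that is wild-type for ARID1A, carrying a doxycycline-inducible short hairpin RNA (shRNA) to ARID1A, a subunit of the SWI/SNF chromatin remodeling complex. The 12 libraries form 4 groups with 3 replicates each, and all 4 come from this hairpin line grown in DMEM. The control group (C), labelled wild-type in genotype, got neither agent, D got doxycycline for 4 days and is labelled shARID1A, I got IFNγ for 24 hours and is labelled wild-type, and DI got both and is labelled shARID1A. No group got doxycycline without the hairpin, so the antibiotic and the hairpin cannot be told apart. The line is 1 clone, and the labels do not say that replicates came from separate cultures, so p-values measure the spread between these libraries, which may be technical.

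HIF is a pair of proteins, an oxygen-regulated α subunit and a stable β subunit. HIF1A encodes HIF-1α, EPAS1 encodes HIF-2α, and HIF3A encodes HIF-3α, several forms of which dampen the response. ARNT and ARNT2 encode β subunits, ARNT2 being the form of neural tissue. When oxygen is present, the prolyl hydroxylases made by EGLN1 and EGLN3 mark the α subunits for destruction through the VHL ubiquitin ligase. When oxygen falls, the pair binds DNA at a short core motif and turns on genes for vessel growth, glycolysis and cell survival, and also EGLN1 and EGLN3, which closes a feedback loop. HIF-2α is known in NB as a protein of immature, neural crest-like tumor cells. Because control of the α subunits is largely at the protein level, mRNA counts are only one side of this pathway.

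The libraries held 16469832 to 21790869 counts. ARID1A, the target of the hairpin, stood at 197, 186 and 165 CPM (counts divided by the TMM-scaled library size) in C and at 197, 159 and 158 CPM in the libraries labelled D, so the groups overlapped (log2 fold change −0.09, SE 0.109). In DI it stood at 151, 133 and 148 CPM, below the 192 to 203 CPM of I. IRF1, the interferon-induced transcription factor, rose from 2.14 CPM in C to 411 CPM in I. All 15 NB markers examined, MYCN among them, averaged at least 1 CPM, 2 of 8 endothelial markers and 0 of 8 leukocyte markers did, and 6 of 8 fibroblast and mesenchymal markers did. The fibroblast and mesenchymal markers together reached 111 to 135 CPM per C library, 79.0 to 106 per D library, 128 to 171 per I library and 104 to 137 per DI library. Transcripts of the mitochondrial genome made up 3.35 to 4.99% of each C library and 0.856 to 1.30% of each D library, and D replicate 2 held 1.08%. The part of either in the results was not tested. In bulk RNA, fewer cells of a type and less RNA per cell cannot be told apart.

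Promoter sequence was read for 8 of the 10 genes from RefSeq (GRCh38.p14, 250 bases before to 50 bases after the gene's start). The core motif of HIF binding was searched as ACGTG and as GCGTG on both strands, where the other strand reads CACGT and CACGC, and matches may overlap. At least 1 match lay in 6 of these 8 windows (75.0%) and in 13213 of all 27305 promoters (48.4%). Windows of 28 of 33 hypoxia-induced genes (84.8%) and 12 of 18 glycolytic hypoxia targets (66.7%) held one. So did those of 15 of 21 HIF regulators (71.4%) and 8 of 12 genes linked to HIF-2α (66.7%). Counted by form, ACGTG lay in 2 of the 8 windows (25.0%) and in 21.6% of all promoters. GCGTG lay in 5 of the 8 (62.5%) and in 36.3% of all promoters. BNIP3 had 6 matches, HIF3A had 3, EPAS1, HIF1A, EGLN1 and ADM had 1 each, and ARNT and EGLN3 had none. A match is only a run of letters. Shown here are the factor that rose (EPAS1), the target with the most matches (BNIP3), a hydroxylase gene without one (EGLN3), and CA9, which encodes carbonic anhydrase IX. CA9 had the deepest drop among the listed targets between D and C in replicates 1 and 3, but not in replicate 2 (log2 difference −0.02). Matches are in capitals and each strand is read 5′ to 3′. The EPAS1 window is chr2:46297157-46297456 on the plus strand, BNIP3 is chr10:131981874-131982173 on the minus strand, EGLN3 is chr14:33951025-33951324 on the minus strand, and CA9 is chr9:35673678-35673977 on the plus strand.
EPAS1: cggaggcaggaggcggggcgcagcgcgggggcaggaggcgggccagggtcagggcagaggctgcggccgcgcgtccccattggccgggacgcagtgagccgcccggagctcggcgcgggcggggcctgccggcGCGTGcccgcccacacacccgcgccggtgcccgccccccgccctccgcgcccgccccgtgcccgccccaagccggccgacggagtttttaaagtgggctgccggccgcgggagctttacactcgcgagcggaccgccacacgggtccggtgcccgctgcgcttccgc
BNIP3: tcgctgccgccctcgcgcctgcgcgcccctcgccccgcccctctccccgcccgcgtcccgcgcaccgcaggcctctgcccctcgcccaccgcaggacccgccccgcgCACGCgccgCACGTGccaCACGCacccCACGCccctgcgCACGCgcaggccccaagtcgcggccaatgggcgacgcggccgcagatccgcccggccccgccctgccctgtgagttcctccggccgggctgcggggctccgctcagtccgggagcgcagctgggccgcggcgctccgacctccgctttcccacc
EGLN3: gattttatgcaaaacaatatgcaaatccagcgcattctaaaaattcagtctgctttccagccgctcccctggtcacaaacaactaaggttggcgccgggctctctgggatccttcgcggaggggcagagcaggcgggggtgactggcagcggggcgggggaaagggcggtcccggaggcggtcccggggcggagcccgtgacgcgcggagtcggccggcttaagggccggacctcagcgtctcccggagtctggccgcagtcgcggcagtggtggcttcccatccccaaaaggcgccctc
CA9: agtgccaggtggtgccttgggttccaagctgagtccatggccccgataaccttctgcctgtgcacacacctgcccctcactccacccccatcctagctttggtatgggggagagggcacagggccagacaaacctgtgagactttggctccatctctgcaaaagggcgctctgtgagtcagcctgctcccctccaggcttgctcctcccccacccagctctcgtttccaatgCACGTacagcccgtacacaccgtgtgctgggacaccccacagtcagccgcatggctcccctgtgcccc

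EPAS1 mRNA was higher in every doxycycline library than in every library without it, though the I and DI libraries among them were those that chose the gene. The gene (ENSG00000116016) spans chr2:46293667-46386703 on the plus strand (GRCh38, GENCODE release 29), so the RefSeq promoter window above lies inside that span. EPAS1 stood at 69.2, 50.2 and 43.3 CPM in C (54.2 ± 13.4, SD, n = 3) and at 147, 145 and 99.2 CPM in D (130.4 ± 27.0, SD, n = 3). The lowest D library was above the highest C library. The D and C libraries compared here had no part in choosing EPAS1, although libraries with the same replicate number varied together across groups. The model's estimate of spread, however, came from all 12 libraries, those of I and DI included. EPAS1 rose 2.41-fold, a log2 fold change of 1.27 (SE 0.224), with an adjusted p of 0.0256 by edgeR's quasi-likelihood test. With only the C and D libraries fitted, which leaves out those that chose the gene, the adjusted p was 0.129 by edgeR, so EPAS1 was not called. The exact two-sided permutation test of 3 against 3 libraries, which does not use the replicate numbers, gave p = 0.1. That is the smallest p such an unpaired test can give.

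Within replicate numbers 1, 2 and 3 the log2 difference of CPM + 0.5 between D and C was 1.08, 1.52 and 1.19. With the replicate number as a block in the edgeR model, the fold change was 1.27 (log2) with an adjusted p of 0.000387. The call was lost without C replicate 2 (log2 fold change 1.21, adjusted p = 0.0963 by edgeR), without C replicate 3 (1.13, 0.126), without D replicate 1 (1.17, 0.0959), without D replicate 2 (1.18, 0.0816) and with the C and D libraries fitted alone (1.27, 0.129). It held without C replicate 1 (1.47, 0.0345) and without D replicate 3 (1.43, 0.0338). Fits without replicate number 1, 2 or 3 in all groups, which were chosen after seeing the data, also lost the call. There the log2 fold change was 1.38, 1.12 and 1.28, at adjusted p values of 0.251, 0.155 and 0.127 by edgeR.

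With IFNγ, EPAS1 stood at 38.8, 28.9 and 23.5 CPM in I (30.4 ± 7.75, SD, n = 3) and at 88.8, 96.1 and 83.0 CPM in DI (89.3 ± 6.58, SD, n = 3). DI lay above I in each library, by 1.55 on the log2 scale (SE 0.227, 2.94-fold), and this is the contrast that chose the gene. The within-number log2 differences were 1.18, 1.72 and 1.80. IFNγ libraries had less EPAS1 than their partners without it. I was 0.561 times C, a log2 fold change of −0.83 (SE 0.225), and the within-number differences were −0.83, −0.79 and −0.86. DI was 0.684 times D, a log2 fold change of −0.55 (SE 0.221). These 2 contrasts share libraries with the one that chose EPAS1, so no p-value is given for it there, and where EPAS1 appears in their counts of calls that is a description. The groups ranked D, DI, C and I from highest to lowest, and no library of one group overlapped a library of the next in that order. The difference of the doxycycline effect with and without IFNγ was 0.29 on the log2 scale (SE 0.314), little more than 0 beside its error.

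HIF1A (ENSG00000100644, chr14:61695513-61748259, plus strand), the gene for HIF-1α, moved the same way but far less. It stood at 207, 230 and 245 CPM in C (227 ± 18.8, SD, n = 3) and at 283, 267 and 272 CPM in D (274 ± 8.06, SD, n = 3). The groups did not overlap, and the log2 fold change was 0.27 (SE 0.0936, adjusted p = 0.215 by edgeR). With the replicate block HIF1A passed the test (log2 fold change 0.28, adjusted p = 0.0330 by edgeR). In I it stood at 231, 243 and 243 CPM and in DI at 243, 270 and 292 CPM, where the lowest DI library lay just below the highest I library.

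Per length, HIF1A mRNA exceeded EPAS1 mRNA in every library, by a smaller ratio with doxycycline. Reads per kilobase of merged exons (RPKM, from the same CPM) averaged 44.1 for HIF1A and 7.42 for EPAS1 in C, and 53.2 and 17.9 in D. The ratio of HIF1A to EPAS1 RPKM was 4.25, 6.49 and 8.02 in the C libraries and 2.73, 2.62 and 3.89 in the D libraries. With IFNγ the ratio was 8.43, 12 and 14.6 without doxycycline and 3.88, 3.98 and 4.98 with it. Ratios in D lay below all those in C. Ratios in DI lay below all those in I, which is a description, as that contrast chose EPAS1. In C the RPKM means ranked BNIP3 (128), HIF1A (44.1), ADM (31.3), EGLN1 (14.7), ARNT2 (14.0), ARNT (9.91), VEGFA (9.81), EPAS1 (7.42), EGLN3 (4.67) and HIF3A (0.0651). In that order the libraries of EGLN1 and ARNT2 overlapped, as did those of ARNT and VEGFA and those of VEGFA and EPAS1, while the lowest ARNT2 library (10.8) lay just above the highest ARNT library (10.7). In D, EPAS1 at 17.9 RPKM stood above the means of ARNT2 (15.8), ARNT (13.1) and EGLN1 (12.4), although its lowest library overlapped those of ARNT2, and EGLN1 in D replicate 2 (24.7) was above every EPAS1 library of D. Merged exons count every annotated isoform, so a gene with many exons seldom used, such as VEGFA with 32 transcripts, is understated on this scale.

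**Figure D1:**
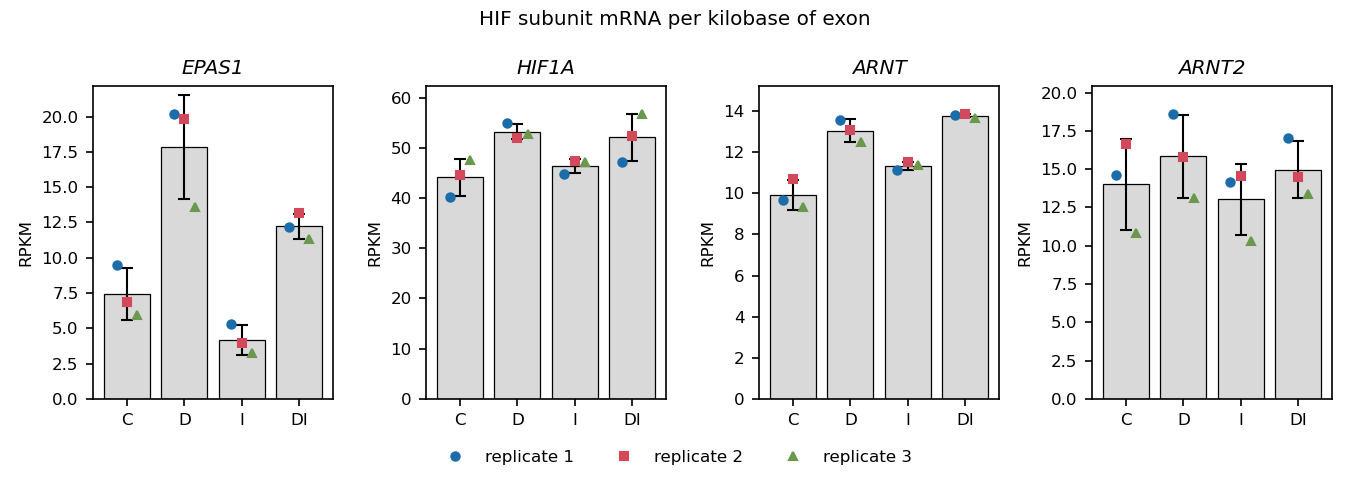
RPKM of EPAS1, HIF1A, ARNT and ARNT2 in groups C, D, I and DI, on linear axes that start at 0. Bars are means of 3 libraries, error bars are 1 SD, and symbols mark replicates 1 to 3. EPAS1 means run from 4.16 in I to 17.9 in D, while HIF1A means stay between 44.1 and 53.2.

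ARNT (ENSG00000143437, chr1:150809705-150876768, minus strand), the common β partner, rose in D. It stood at 63.2, 69.9 and 60.7 CPM in C (64.6 ± 4.74, SD, n = 3) and at 88.4, 85.4 and 81.3 CPM in D (85.0 ± 3.58, SD, n = 3). The groups were well apart, and the log2 fold change was 0.40 (SE 0.0805, adjusted p = 0.0437 by edgeR). The call held with the replicate block (0.40, 0.00470) but was lost without any 1 of the 6 libraries of C and D, at adjusted p values of 0.0686 to 0.214, and without the filter on low counts (0.39, 0.170). Over those leave-outs the log2 fold change stayed between 0.35 and 0.45. In I, ARNT stood at 72.5, 75.2 and 74.0 CPM and in DI at 89.9, 90.2 and 89.2 CPM, so DI lay above I in all 3 libraries.

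ARNT2 (ENSG00000172379, chr15:80404350-80597937, plus strand) showed no such separation. Its CPM was 113, 129 and 83.7 in C and 144, 122 and 102 in D, with a log2 fold change of 0.17 (SE 0.192, adjusted p = 0.767 by edgeR). In each of the 4 groups replicate 3 had the least ARNT2.

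HIF3A (ENSG00000124440, chr19:46297046-46343433, plus strand) was near the detection limit, and what was there came mostly from replicate 2. The C libraries had 7, 23 and 1 counts and the D libraries 2, 59 and 0. The I libraries had 9, 35 and 3 counts and the DI libraries 1, 58 and 0. In each group replicate 2 had the most, and a count of 0 allows up to 3 counts, which is 0.135 to 0.174 CPM in these libraries. No difference in HIF3A between C and D was detectable at this depth (log2 fold change 0.91, SE 1.81, adjusted p = 0.889 by edgeR).

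**Figure D2:**
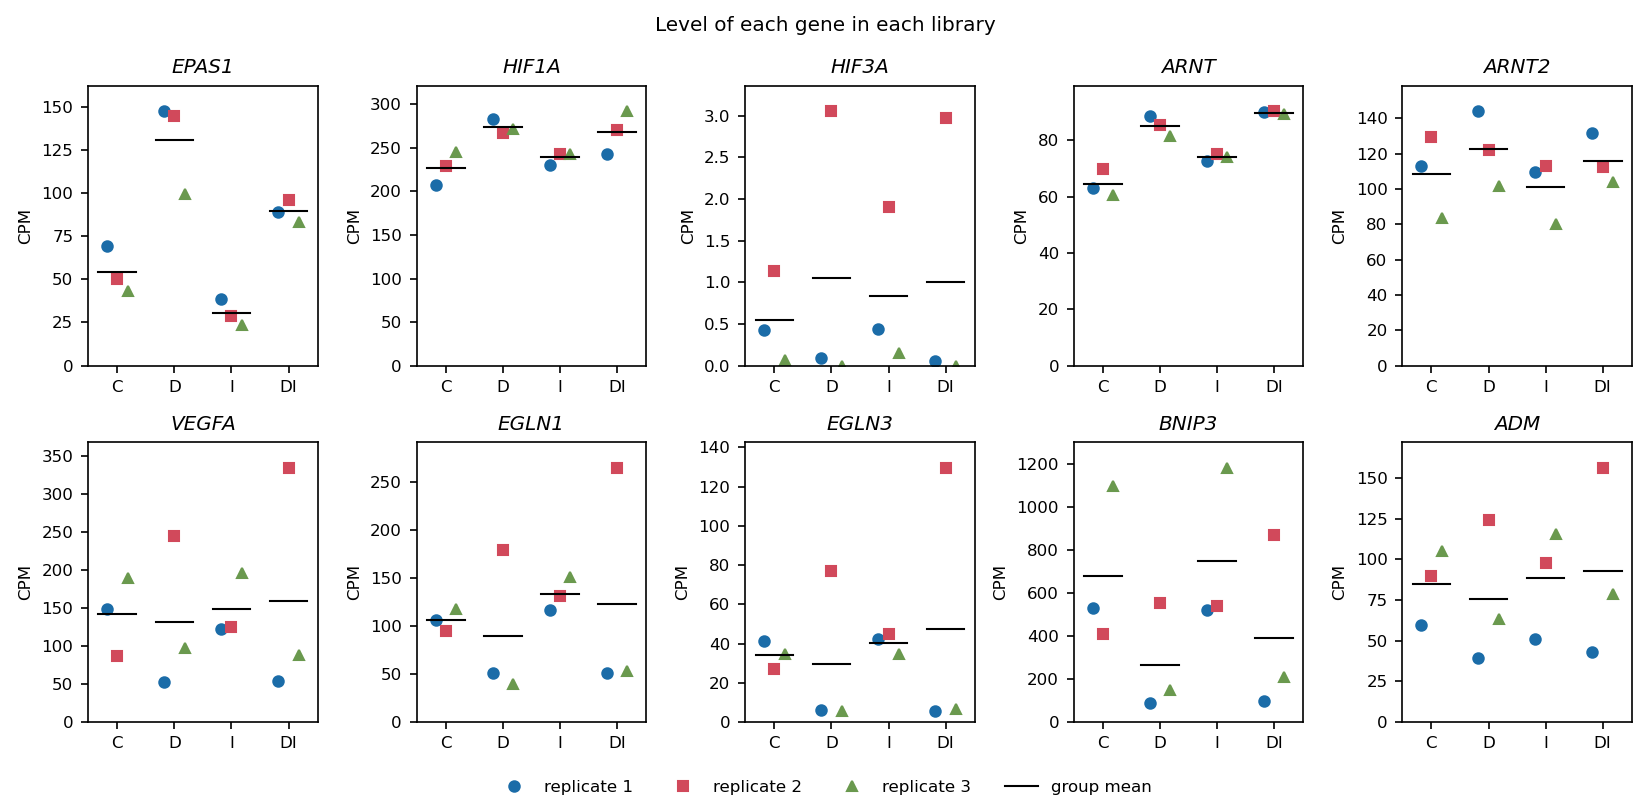
CPM of each of the 10 genes in each library, with groups on the x axis, symbols for replicates 1 to 3, a line at the group mean, and a separate linear y axis from 0 for each gene. EPAS1 and ARNT sit higher in all doxycycline libraries, while for VEGFA, EGLN1, EGLN3, BNIP3 and ADM replicate 2 stands above the others in both doxycycline groups.

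The hydroxylase and target genes behaved unlike EPAS1. Among doxycycline libraries, with or without IFNγ, replicate 2 stood above replicates 1 and 3 for EGLN1, EGLN3, VEGFA, BNIP3 and ADM. EGLN3 (ENSG00000129521, chr14:33924231-34462774, minus strand), a hydroxylase gene known for its strong induction by HIF, stood at 41.4, 26.9 and 34.8 CPM in C. In D it stood at 6.10, 77.1 and 5.39 CPM. Replicates 1 and 3 of D were far below every C library and replicate 2 was above all of them, by a factor of 13.4 over the mean of the other two. The same arrangement was there with IFNγ, where EGLN3 was 42.1, 44.9 and 34.5 CPM in I and 5.44, 129.7 and 6.53 CPM in DI.

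EGLN1 (ENSG00000135766, chr1:231363751-231425044, minus strand), which encodes the main oxygen-sensing hydroxylase PHD2, had the same order with a smaller span. It stood at 106, 95.1 and 118 CPM in C and at 50.5, 180 and 39.7 CPM in D. It stood at 117, 132 and 151 CPM in I and at 51.1, 265 and 52.7 CPM in DI. Again replicates 1 and 3 fell under all libraries without doxycycline and replicate 2 exceeded them all.

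BNIP3 (ENSG00000176171, chr10:131966455-131982013, minus strand), a mitophagy receptor gene and the most abundant of the 10 per length in C (128 RPKM), stood at 531, 409 and 1100 CPM in C. In D it stood at 86.4, 554 and 150 CPM. Replicate 2 of D was inside the C range here, and the others were below it. In I BNIP3 was 523, 540 and 1183 CPM and in DI 95.3, 869 and 209 CPM. The 40 BNIP3 pseudogenes in the table held 0.857% as many counts as BNIP3 itself, and reads shared with them cannot be told apart in these counts.

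VEGFA (ENSG00000112715, chr6:43770184-43786487, plus strand), the vessel growth factor gene, stood at 149, 87.0 and 189 CPM in C and at 53.0, 245 and 96.6 CPM in D. Replicate 3 of D lay inside the C range, although it was below its own partner, replicate 3 of C. In I VEGFA was 122, 125 and 196 CPM and in DI 54.3, 334 and 88.5 CPM. ADM (ENSG00000148926, chr11:10304680-10307397, plus strand), the gene for the vasodilator peptide adrenomedullin, had the smallest ratio of replicate 2 to the mean of replicates 1 and 3 of these 5 in D (2.41) and in DI (2.57). It stood at 59.9, 89.6 and 105.5 CPM in C and 39.5, 124 and 63.6 CPM in D, with overlapping groups. In I ADM was 51.1, 98.1 and 116 CPM and in DI 43.0, 157 and 78.9 CPM.

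Compared within replicate numbers, the log2 differences of CPM + 0.5 between D and C split by sign. For EGLN3 they were −2.67, 1.50 and −2.59 in replicates 1, 2 and 3. For BNIP3 they were −2.61, 0.44 and −2.87. For EGLN1 they were −1.06, 0.92 and −1.56, for VEGFA −1.48, 1.49 and −0.97, and for ADM −0.59, 0.47 and −0.73. The split came back between DI and I, where EGLN3 gave −2.84, 1.52 and −2.32 and BNIP3 −2.45, 0.68 and −2.50. So in replicates 1 and 3 these 5 genes were lower with doxycycline, with and without IFNγ, and in replicate 2 they were higher. EPAS1 and ARNT were higher in all 3, and ARID1A was no lower in D replicate 1 than in C replicate 1.

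**Figure D3:**
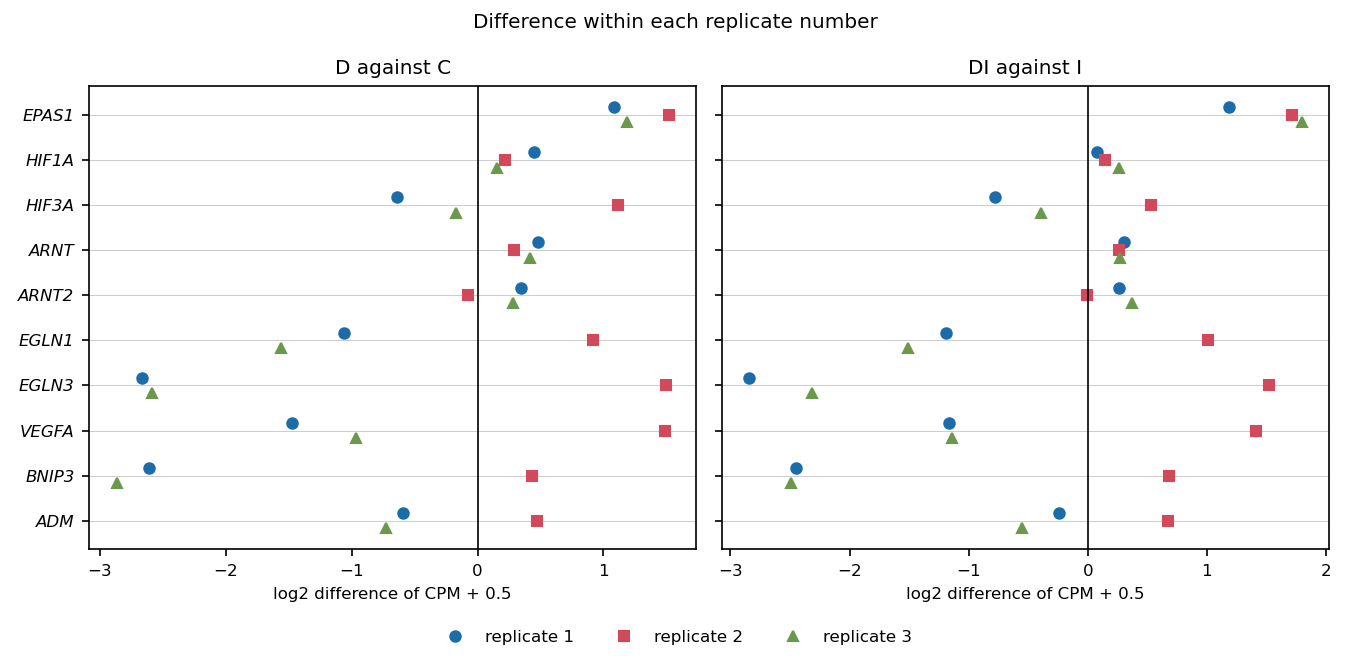
Log2 difference of CPM + 0.5 within each replicate number, D minus C on the left and DI minus I on the right, for the 10 genes, with symbols for replicates 1 to 3. EPAS1 is at or above 1.08 in all 6 pairs, of which the DI minus I pairs are the contrast that chose it. EGLN1, EGLN3, VEGFA, BNIP3 and ADM are below 0 in replicates 1 and 3 and above 0 in replicate 2.

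With all libraries in the model, none of these 5 genes passed the D vs C test. The log2 fold changes were −0.22 for EGLN3 (SE 1.18), −0.24 for EGLN1 (SE 0.661), −1.37 for BNIP3 (SE 0.843), −0.11 for VEGFA (SE 0.669) and −0.17 for ADM (SE 0.509), at adjusted p values of 0.516 to 0.971 by edgeR. These wide errors do not show that the levels were equal. Of the 10 genes, 2 passed in D vs C, EPAS1 and ARNT, both higher, where 1.23% of 15828 tested genes passed in either direction and 0.493% passed as higher. The groups did not overlap for 3 of 10, EPAS1, ARNT and HIF1A, against 19.2% of all tested genes. With the replicate block, 3 of 10 passed, where 13.9% of tested genes did.

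Leaving out replicate 2 from every group, an alternative chosen after seeing the data, turned 2 of the 5 into calls. EGLN3 fell by 2.74 on the log2 scale (SE 0.188, adjusted p = 0.0109 by edgeR) and EGLN1 fell by 1.33 (SE 0.172, adjusted p = 0.0464 by edgeR) in D vs C. BNIP3 was at −2.80 (SE 0.613, adjusted p = 0.0984) and VEGFA at −1.19 (SE 0.382, adjusted p = 0.200) by the same test, and ADM was at −0.70 (SE 0.503, adjusted p = 0.548). In these 8 libraries 0.63% of tested genes passed. EPAS1 (1.12, SE 0.314, adjusted p = 0.155 by edgeR) and ARNT (0.44, SE 0.0922, adjusted p = 0.0967) kept their direction but not their call, and HIF3A was too low to be tested. Leaving out replicate 1 or replicate 3 instead turned EGLN3, EGLN1 and VEGFA to higher in D, with log2 fold changes of 0.04 to 0.42 and no call.

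In DI vs I, the comparison that chose EPAS1, the counts are given as a description. EPAS1 alone of the 10 passed, where 0.67% of all tested genes passed, and EPAS1 and ARNT had groups that did not overlap, as 16.6% of tested genes did. With the replicate block ARNT also passed, where 10.5% of tested genes did. Without replicate 2, EGLN3 differed by −2.67 on the log2 scale (SE 0.187) and EGLN1 by −1.37 (SE 0.171), and 0.239% of tested genes passed.

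With edgeR and no block, IFNγ brought no call among the 10. With the replicate block EPAS1 alone was called, as lower, both in I vs C and in DI vs D. With that block 953 and 706 of 15828 tested genes passed in these 2 contrasts, in either direction. Both contrasts share libraries with the one that chose EPAS1, so its calls there are a description and not a test. In I vs C, 0 of 10 passed edgeR's test, where 2.21% of tested genes did. With DESeq2 1 of 10 passed (EPAS1), where 529 of all genes did. An unadjusted p under 0.05 was reached by 2 (EPAS1 and ARNT), and the share of all tested genes at that threshold is not given here. Groups did not overlap for EPAS1, lower in I, and ARNT, higher in I by 0.19 on the log2 scale (SE 0.0805, adjusted p = 0.524 by edgeR), against 15.1% of all tested genes. In DI vs D, 0 of 10 passed edgeR's test, 1 had an unadjusted p under 0.05 and 0 passed with DESeq2, where 1.72% of tested genes passed with edgeR. EPAS1 and ARNT again had groups that did not overlap, as 9.55% of tested genes did. For the interaction, the difference of the doxycycline effect with and without IFNγ, 0 of 10 passed with edgeR, 0 had an unadjusted p under 0.05 and 0 passed with DESeq2, and 0% of all tested genes passed with edgeR.

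The wider hypoxia response was laid out like the 5 targets. From a list of hypoxia-induced genes that holds none of the 10, 40 were tested. With edgeR 0 of 40 passed in D vs C, 1 had an unadjusted p under 0.05, and 0 passed with DESeq2. Their median log2 fold change was −0.25, beside −0.0012 over all tested genes. Within replicate numbers 1, 2 and 3 the median log2 difference between D and C was −1.15, 0.71 and −1.36, and 37, 6 and 34 of 40 were lower. At least 1 log2 unit lower were 22, 0 and 24 of 40, beside 4.81%, 1.22% and 4.80% of all tested genes. In 29 of 40 genes both D replicates 1 and 3 lay below every C library, against 17.1% of all tested genes. In 27 of the 40 they did so and D replicate 2 did not, against 8.04% of all tested genes. In DI, replicates 1 and 3 lay below every I library in 29 of 40, against 18.4% of all tested genes.

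CA9, an enzyme gene used as a marker of hypoxic tumor cells, and NDRG1, a stress-response gene, were picked from this list after their values were seen. CA9 had 361, 314 and 461 counts in C and 2, 297 and 2 counts in D, and 301, 582 and 695 counts in I against 1, 578 and 4 in DI. Its level was thus lost almost wholly in 2 of 3 doxycycline libraries and in replicate 2 stayed at or near the range of the group without doxycycline. NDRG1 stood at 91.2, 59.3 and 121 CPM in C and at 9.20, 176 and 11.1 CPM in D, which is the arrangement of EGLN3. Without replicate 2, 9 of 40 passed as lower in D vs C by edgeR, where 0.63% of all tested genes passed in either direction. Among the 9 were NDRG1 (log2 fold change −3.40, SE 0.346, adjusted p = 0.0271), P4HA1 (−2.71, SE 0.195, adjusted p = 0.0111), a collagen prolyl hydroxylase gene, and PFKFB3 (−2.16, SE 0.265, adjusted p = 0.0421), a regulator of glycolysis. CA9 also passed, but its fold change rests on 2 counts in each D library, under the detection floor of 3 counts, and is not given.

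Among glycolytic hypoxia targets, the median of the replicate 2 differences lay near 0, while single genes ran from −0.33 (TPI1) to 0.92 (HK2) between D and C. Of 18 tested, 18 were lower in D replicates 1 and 3 than in the C libraries of the same number, with medians of −1.17 and −1.37, while in replicate 2 the median was 0.03 and 8 of 18 were lower. Between DI and I, 18 of 18 were again lower in replicates 1 and 3, and in replicate 2 the median was 0.11 and 3 of 18 were lower. The lactate exporter gene SLC16A3 gave −4.71, 0.32 and −4.20, the enolase gene ENO1 −1.60, −0.12 and −1.42, and PDK1, whose kinase holds back pyruvate oxidation, −1.82, −0.24 and −1.51. In 15 of 18 genes D replicates 1 and 3 lay below every C library, against 17.1% of all tested genes. In 9 of the 18 they did so and replicate 2 did not, against 8.04% of all tested genes. In D vs C 0 of 18 passed with edgeR (median −0.78), where 1.23% of all tested genes did. With DESeq2 2 of 18 passed as lower, where 650 of all genes passed in either direction. An unadjusted p under 0.05 was reached by 6 of 18, a threshold for which the share of all tested genes is not given here. By edgeR, 4 passed as lower with the replicate block (ENO1, LDHA, TPI1 and PGAM1) and 4 without replicate 2 (SLC16A3, PFKP, ENO1 and SLC2A1), all named after their values were seen. Of all tested genes, 13.9% passed in either direction with the block and 0.63% without replicate 2.

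**Figure D4:**
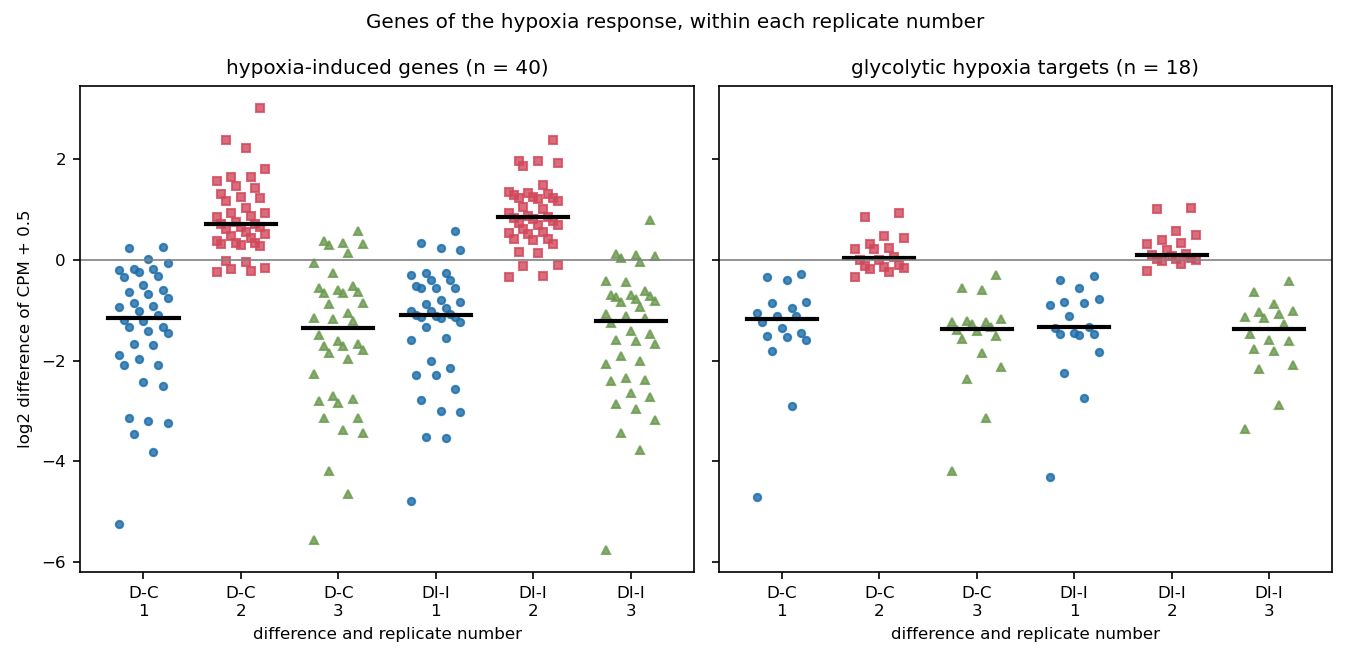
Log2 difference of CPM + 0.5 within each replicate number for 40 hypoxia-induced genes and 18 glycolytic hypoxia targets, D minus C and DI minus I, where each symbol is a gene and each bar a median. Medians for hypoxia-induced genes are −1.15, 0.71 and −1.36 in D minus C and −1.09, 0.85 and −1.21 in DI minus I.

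Of 26 HIF regulators tested (VHL and its ligase partners, HIF1AN, the coactivators and others), 1 passed in D vs C, where 1.23% of all tested genes did. It was TRRAP, an adaptor of histone acetyltransferase complexes. TRRAP stood at 133, 152 and 115 CPM in C and at 236, 213 and 190 CPM in D (log2 fold change 0.68, SE 0.115, adjusted p = 0.0208 by edgeR). With the replicate block 6 of 26 passed, where 13.9% of all tested genes did. EP300 (0.63, SE 0.0908, adjusted p = 0.00216 by edgeR) and CREBBP (0.60, SE 0.125, adjusted p = 0.0120), the acetyltransferase coactivators of HIF, were among the 4 that were higher. The within-number medians of the list between D and C were near 0, at 0.01, 0.08 and −0.04, but some members split like the 5 targets. At least 1 log2 unit lower were 2, 0 and 2 of 26, beside 4.81%, 1.22% and 4.80% of all tested genes. Named after their values were seen, BHLHE40 gave −4.54, 2.85 and −3.48, and BHLHE41, at 0 CPM in D replicate 1, gave −1.79, 3.18 and −3.66. MXI1 (−0.84, 0.61 and −0.72) and SIAH2 (−0.47, 0.51 and −0.36) split with smaller sizes. In I vs C, 1 of 40 hypoxia-induced genes passed, RBCK1, a subunit of the linear ubiquitin ligase, at 40.3, 41.5 and 40.0 CPM in C and 96.7, 97.8 and 101 CPM in I (log2 fold change 1.28, SE 0.141, adjusted p = 0.000298 by edgeR). That count is near the share of all tested genes called there, 2.21%.

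Of 11 tested genes linked to HIF-2α in other cells, 0 passed in D vs C with edgeR, 0 had an unadjusted p under 0.05 and 0 passed with DESeq2, and the median log2 fold change was −0.02. Their within-number medians were −0.32, 0.42 and −0.25, and 8, 2 and 8 of 11 were lower, beside 8000, 7825 and 7954 of 15828 tested genes. Some of the 11 lay near the detection floor of 3 counts. EPO stood at 0.123, 0 and 0.748 CPM in C and at 0, 1.14 and 0 CPM in D. PLIN2 stood at 0.307, 0.447 and 0 CPM in C and at 0, 0.776 and 0.232 CPM in D. With the replicate block 1 of 11 passed, a share below the 13.9% of all tested genes, and it was NOTCH3 (0.38, SE 0.0895, adjusted p = 0.0210 by edgeR), a receptor gene named after its value was seen. Of 14 tested genes of the bHLH-PAS family, to which the HIF subunits belong, 0 passed in D vs C with edgeR and 0 with DESeq2. An unadjusted p under 0.05 was reached by 3 of 14, and the share of all tested genes at that threshold is not given here. With the block 3 of 14 passed as higher (NCOA1, PER3 and BMAL1), where 13.9% of all tested genes passed in either direction.

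Among 13952 genes outside the set that averaged at least 1 CPM, those whose log2 CPM ran most like that of EPAS1 over the 12 libraries included XRCC2 (Pearson r = 0.971), MATR3 (0.953), NR2F2 (0.952), ESYT3 (0.948) and MIRLET7IHG (0.940). Most opposed were NCOA7 (−0.977), GNB2 (−0.975) and H3C6 (−0.972). These are descriptions over libraries that fall into 4 groups. XRCC2, a DNA repair gene, averaged 39.4 CPM without either agent, 61.9 with doxycycline, 32.0 with IFNγ and 49.8 with both, the same order of groups as EPAS1. NCOA7 averaged 58.4, 29.8, 94.3 and 43.6 CPM in those groups.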

How the data were processed

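RNA was sequenced from 12 libraries of the SK-N-DZ shARID1A clone as paired Illumina reads. The deposited values are raw counts per gene made by the authors. The aligner, counter and genome build are not given in the sources used here, and the submitters' processing notes name DESeq2. All 43769 identifiers occur in GENCODE release 29 (GRCh38), which gave positions and lengths. The deposited tables also hold the authors' log2 fold changes and p-values, and 18 per-library columns that no label explains, and none of these were used. Whether counting used strand is not stated, so antisense reads cannot be told apart. Groups came from the labels.

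Counts were scaled by TMM, filtered with filterByExpr (minimum count 10, 15828 genes left) and fitted with edgeR 4.0.16 (limma 3.58.1, R 4.3.3) as 1 quasi-likelihood model of 4 groups. Tests were two-sided, with Benjamini-Hochberg adjustment over all tested genes and calls at an adjusted p under 0.05. The SE of a log2 fold change is its size divided by the square root of F. Alternatives were DESeq2 1.42.0, other scalings, no filter, the groups compared alone, a replicate block and leaving out libraries. Within-number differences used a pseudocount of 0.5 CPM, and 3 counts (0.135 to 0.187 CPM) were the detection floor, which covers counting error only. The model was first tested on simulated counts with planted changes. Python 3.11.15 and matplotlib 3.10.9 read the promoters and drew the plots.

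The replicate numbers pair the libraries. With group means removed, the 18 pairs of libraries with the same number in different groups correlated at 0.321 to 0.839, and the 36 pairs with other numbers at −0.663 to 0.183. Replicates of a group differed beyond counting noise.

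Named genes were the 10 members, up to 4 called genes with the largest change from each pathway list in D vs C and I vs C, the 6 genes most like EPAS1 (1 of them is not reported here) and the 3 most opposed, and ARID1A and IRF1 as checks. The members and lists were chosen with earlier results of these data known.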

Additional observations from a re-analysis of the deposited data

How the results depend on the processing

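The direction of EPAS1 in D vs C held under every alternative run, and its log2 fold change ran from 1.12 to 1.47 over the fits that left out libraries, among them fits without 1 replicate number in all 4 groups, which were chosen after seeing the data. With the compared groups alone, EPAS1 was at 1.27 but no longer called, 0 of the 10 genes and 16 of all genes passed in D vs C, and 0 and 0 passed in DI vs I. With DESeq2, all genes called were 650 in D vs C, 529 in I vs C, 471 in DI vs I and 1 in the interaction (IL18BP), with 1 of the 10 genes called in I vs C and 2 in DI vs I, and EGLN3 got no p-value in any contrast. Without a filter, 119 of all genes and 1 of the 10 passed in D vs C. With the replicate block, that is with the libraries paired by number, 2200 of all genes passed in D vs C, 953 in I vs C, 1658 in DI vs I and 706 in DI vs D. Of the 10 genes, the block added HIF1A in D vs C, made 1 call in I vs C (EPAS1), 2 in DI vs I (EPAS1 and ARNT) and 1 in DI vs D (EPAS1), and it changed no other call among them.

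Over the fits that left out libraries, all genes called ran from 0 to 100 in D vs C, 127 to 314 in I vs C, 0 to 77 in DI vs I and 98 to 244 in DI vs D, and the 10 genes gave 0 to 2 calls in D vs C. For DI vs I they gave 0 to 2. In D vs C the log2 fold change ran from −3.29 to 2.06 for HIF3A, −1.19 to 0.34 for VEGFA, −1.33 to 0.19 for EGLN1, −2.74 to 0.42 for EGLN3, −0.72 to 0.14 for ADM and −2.80 to −0.55 for BNIP3, with fewer libraries in each fit. The split between replicate 2 and replicates 1 and 3 of D and DI limits every mean of these genes, and its cause was not tested. HIF3A could not be tested without replicate 2. Library size alone moved the median of all genes by at most 0.0921 on the log2 scale.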
